A study of Mus musculus with 2 samples.

Results

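The cells described here were the barcodes that carried several transcripts of *Treml4*, *Adgre4*, *Ifitm6*, *Cd244a*, *Klra2*, *F5* and *Hp*, a set of genes known from monocytes of the blood, in denervated mouse muscle. In both scRNA-Seq libraries, barcodes were kept if over 200 genes had a unique molecular identifier (UMI) and mitochondrial transcripts made up under 10% of the UMIs. A barcode was selected when *Csf1r* or *Lyz2* and at least 3 of the 7 genes had a UMI, when fewer than 4 of the interferon-response genes *Ifit2*, *Ifit3*, *Isg15*, *Rsad2*, *Slfn4* and *Ms4a4c* had one, and when fewer than 3 of the neutrophil genes *S100a8*, *S100a9*, *Retnlg* and *Cxcr2* had one. This selected 1069 of 48143 cells, 423 of 23385 in the IgG library and 646 of 24758 in the SPP1-nAb library. The cells were thus chosen by their measured UMIs of these genes, so the levels of these genes in the selected cells are a description and not a result.

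Both libraries were made from male mice 10 to 16 weeks old with the peroneal nerve crushed on both sides. The labels give the strain as C57BL/6J, and the paper's methods describe *S100GFP*-tg reporter mice, pooled per library in a number that the sources used here do not give. Each tibialis anterior (TA) muscle received 2 μg of control goat anti-mouse IgG or of SPP1-neutralizing antibody (SPP1-nAb) in 10 μL at injury and again every 2 days, and muscle was taken at 7 days post injury (7 dpi). The labels' protocol names both TA and gastrocnemius muscle, whereas the paper describes this experiment on TA muscle alone, so whether muscle without an injection was included is not known. The sample titles name GFP+ cells, whereas the protocol describes sorting of live GFP+ and GFP- cells. The *Gfp* transcript had a UMI in 147 of the 423 selected IgG cells and in 318 of the 646 selected SPP1-nAb cells. Each condition had 1 library, so no test between conditions was possible. All intervals are 95% intervals of counting error only, and the spread between animals is not known.

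Monocytes leave the bone marrow as classical cells, which in mice are rich in *Ly6c2*, *Ccr2* and *Vcan* and enter injured tissue, where many become macrophages or cells with antigen-presenting features. A share of them turns into non-classical monocytes, which patrol the vessel wall, depend on the nuclear receptor NR4A1 and carry *Treml4*, *Ace*, *Spn* and *Itgal*. *Treml4* encodes a myeloid receptor of the TREM family that binds dying cells, *Adgre4* an adhesion receptor of the EGF-TM7 family, *Ifitm6* a membrane protein of the interferon-induced family, *Cd244a* an immunoreceptor of the SLAM family, *Klra2* a lectin-like receptor of the Ly49 family, *F5* coagulation factor V and *Hp* the hemoglobin-binding protein haptoglobin.

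On GRCm39, *Treml4* lies on chromosome 17 at 48571323-48582388 and *Adgre4* on the same chromosome at 56056984-56175274, both on the plus strand. *Cd244a* (171386708-171437315) and *F5* (163979289-164047846) lie on the plus strand of chromosome 1, *Klra2* on the minus strand of chromosome 6 at 131195757-131224330, *Ifitm6* on the minus strand of chromosome 7 at 140595612-140597837 and *Hp* on the minus strand of chromosome 8 at 110301759-110305804. *Klra2*, *Ifitm6* and *Cd244a* belong to families of similar genes, so their counts could share reads with relatives. Promoters were taken from RefSeq, whose table is of GRCm38.p6, for 6 of the 7 genes, from 250 bases before to 50 bases after the start, and each was found once in GRCm39. They are shown because these genes were selected for being detected together. Both strands were searched for the letters TTGCNNAA (read by C/EBP factors), GAGGAAG (PU.1) and AAAGGTCA (NBRE, read by NR4A1). A C/EBP match was present in 3 of the 6 promoters, those of *Adgre4*, *Cd244a* and *Klra2*, and in 10.8% of all 32851 RefSeq promoters of this length. A PU.1 match was present in 1 of the 6, after the start of *Adgre4*, and in 13.6% of all. The NBRE letters were in 0 of the 6 and in 1.51% of all. No motif overlapped another, and a match is only a match of letters. The 3 promoters with a match and that of *Treml4* are printed 5′ to 3′ along the gene, with the matches in capitals, from chr17:48571073-48571372 (plus strand) for *Treml4*, chr17:56056734-56057033 (plus) for *Adgre4*, chr1:171386511-171386810 (plus) for *Cd244a* and chr6:131224276-131224575 (minus) for *Klra2*.
Treml4: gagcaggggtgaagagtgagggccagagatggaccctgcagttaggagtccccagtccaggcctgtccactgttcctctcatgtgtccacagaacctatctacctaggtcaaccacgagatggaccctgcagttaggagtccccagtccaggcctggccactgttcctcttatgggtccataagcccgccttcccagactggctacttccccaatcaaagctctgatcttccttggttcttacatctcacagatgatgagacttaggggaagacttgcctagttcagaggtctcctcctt
Adgre4: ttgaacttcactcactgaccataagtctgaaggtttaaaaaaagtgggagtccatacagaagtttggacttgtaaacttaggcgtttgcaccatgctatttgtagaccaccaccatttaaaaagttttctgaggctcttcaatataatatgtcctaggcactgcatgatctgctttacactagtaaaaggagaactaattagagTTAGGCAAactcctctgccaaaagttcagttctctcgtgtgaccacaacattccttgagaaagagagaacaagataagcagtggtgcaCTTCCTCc
Cd244a: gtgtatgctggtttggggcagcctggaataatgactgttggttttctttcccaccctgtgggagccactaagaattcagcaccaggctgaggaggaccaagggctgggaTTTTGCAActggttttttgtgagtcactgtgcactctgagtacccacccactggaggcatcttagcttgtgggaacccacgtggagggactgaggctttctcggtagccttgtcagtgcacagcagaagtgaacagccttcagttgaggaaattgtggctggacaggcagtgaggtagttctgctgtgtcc
Klra2: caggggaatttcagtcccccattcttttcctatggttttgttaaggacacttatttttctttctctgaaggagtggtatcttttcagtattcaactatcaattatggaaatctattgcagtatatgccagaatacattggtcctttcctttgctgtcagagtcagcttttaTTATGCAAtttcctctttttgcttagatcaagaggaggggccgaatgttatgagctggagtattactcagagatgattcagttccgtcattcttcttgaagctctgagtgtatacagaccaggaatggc

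The selected cells made up 1.81% of the IgG cells (1.64% to 1.99%) and 2.61% of the SPP1-nAb cells (2.41% to 2.82%), which is a log2 ratio of 0.53 (0.35 to 0.71). The ratio was also computed against other denominators and at equal depth. Among barcodes with *Csf1r* or *Lyz2* the shares were 2.55% and 3.14% (log2 ratio 0.30, 0.12 to 0.48). Among the selected cells and the other mononuclear phagocytes together they were 4.04% and 4.49% (0.15, −0.03 to 0.33), where other mononuclear phagocytes are cells with at least 4 of 8 phagocyte genes, among them *Csf1r*, *Lyz2*, *Cd68*, *Adgre1* and *Ms4a7*, that were not selected and were within the same interferon and neutrophil limits. When every cell was first thinned to 2000 UMIs, 216 IgG cells and 260 SPP1-nAb cells met the rule, and the log2 ratio was 0.13 (−0.14 to 0.40). The SPP1-nAb library was the deeper one, with a median of 4756 UMIs per cell against 3822. In the selected cells the medians were 4201 and 3557 UMIs, 1753 and 1547 genes, and 1.88% and 1.87% mitochondrial UMIs. Thinning also left out cells under 2000 UMIs and lowered the number of selected cells, and its interval overlapped that of the ratio without thinning, so the part of depth in the difference was not settled by it. No barcode was selected in both libraries, and 163 barcodes were shared among all of them. Of the selected barcodes, 4 in the IgG library and 2 in the SPP1-nAb library also occurred in the other library.

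**Figure D1:**
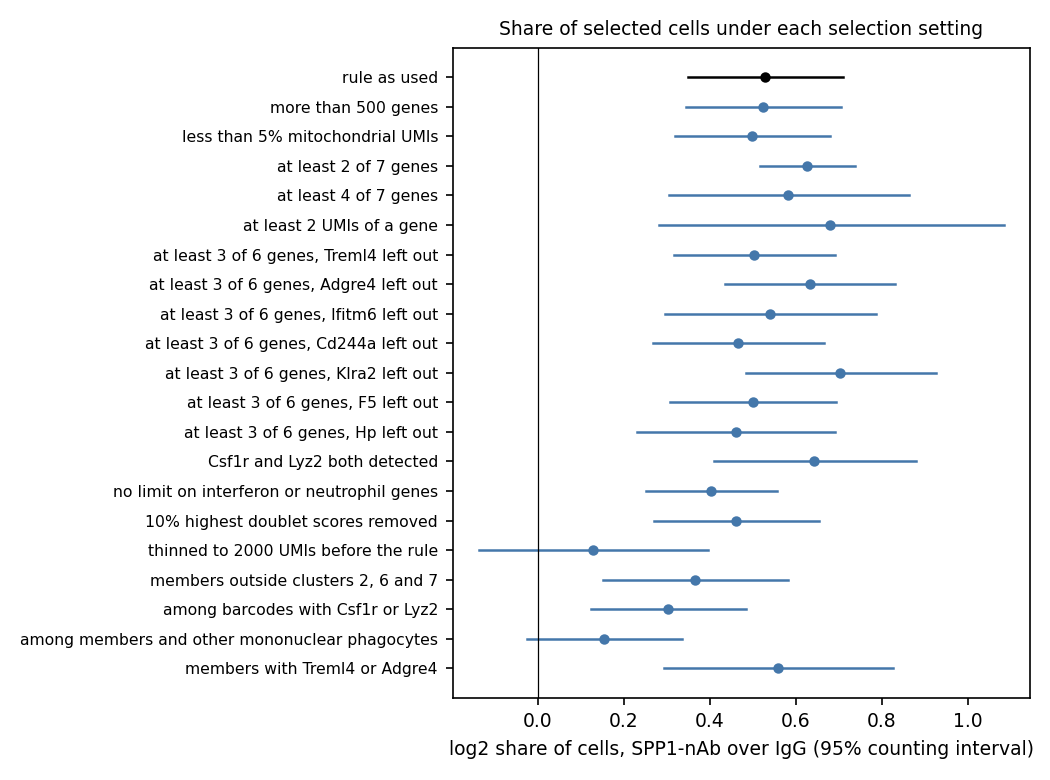
The log2 ratio of the share of selected cells, SPP1-nAb over IgG (x axis), is plotted for the rule as used (black) and for each other setting of the selection (blue), with 95% counting intervals. The rule as used gives 0.53, and the settings that thin cells to 2000 UMIs or count among mononuclear phagocytes have intervals that include 0.

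Of the 7 selection genes, *Ifitm6* was the most often detected, in 357 of 423 IgG cells (84.4%) and 542 of 646 SPP1-nAb cells (83.9%). *Hp* was detected in 70.4% and 77.6% of the selected cells, *Klra2* in 71.6% and 61.0%, *Cd244a* in 40.4% and 46.7%, *Adgre4* in 40.2% and 34.8%, and *F5* in 30.7% and 33.3%. *Treml4* was detected in the fewest cells, 76 of 423 (18.0%) and 139 of 646 (21.5%). Most cells met the rule at its threshold. In the IgG library 247 cells had exactly 3 of the genes, 125 had 4, 43 had 5, 7 had 6 and 1 had all 7, and in the SPP1-nAb library the numbers were 367, 198, 64, 14 and 3. The commonest combination, *Ifitm6* with *Klra2* and *Hp*, was present in 146 cells and holds neither *Treml4* nor *Adgre4*. Either of those 2 genes was detected in 195 IgG cells (46.1%) and 304 SPP1-nAb cells (47.1%), and both in 51 (12.1%) and 60 (9.29%). *Adgre4* had a UMI in 67.1% of the IgG cells with *Treml4* and in 34.3% of those without it, and in 43.2% and 32.5% in the SPP1-nAb library. A cell without *Treml4* had to carry 3 of the other 6 genes, so such shares are partly set by the rule and are only a description.

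The background of the selection genes was read in other cells. At 2000 UMIs per cell, *Treml4* had a UMI in 9.68% of 403 selected IgG cells and 12.2% of 615 selected SPP1-nAb cells, and in 0 of 2609 IgG and 0 of 1239 SPP1-nAb mesenchymal cells, which allows shares of cells with a UMI at this depth of up to 0.141% and 0.297% (exact binomial limits). At full depth the mesenchymal cells likewise had 0 UMIs of it, and 18.0% and 21.5% of the selected cells had one. The other mononuclear phagocytes had 0.232% and 0.383%. For *Hp* the shares were 54.6% and 53.2% in the selected cells and 1.84% and 3.39% in mesenchymal cells, whose median depths were 4769 and 7037 UMIs. Myeloid cells outside the selection were less free of some genes. In unselected cells with at least 3 of the 5 dendritic cell genes *Cd209a*, *Flt3*, *Zbtb46*, *Klrd1* and *H2-DMb2*, *Ifitm6* had a UMI in 19.3% and 14.5% of cells at 2000 UMIs and *Cd244a* in 8.49% and 7.23%, and *Ifitm6* was in 62.8% and 56.4% of the selected cells. *Lyz2* marks the phagocytes less sharply, since 70.0% of all IgG cells and 81.8% of all SPP1-nAb cells had a UMI of it, and 11.7% of IgG mesenchymal cells still had one at 2000 UMIs. It was detected in all 423 selected IgG cells and 642 of the 646 SPP1-nAb cells, whereas *Csf1r*, the receptor for macrophage colony-stimulating factor, was detected in 242 (57.2%) and 404 (62.5%).

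Cells just inside and just outside the threshold of 3 genes are described without a test. Cells with exactly 2 of the 7 genes, 641 in the IgG library and 1093 in the SPP1-nAb library, had 14.2 and 11.5 UMIs of *Spn* per 1000000 UMIs (CPM), and selected cells with exactly 3 had 41.9 and 21.99. For the macrophage gene *C1qa* the levels were 600 and 634 CPM outside and 256 and 341 inside. The limit on interferon genes removed 159 of the 603 IgG cells and 106 of the 844 SPP1-nAb cells that had at least 3 of the 7 genes, and the neutrophil limit removed 24 and 100.

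Levels of other genes in the selected cells and the other mononuclear phagocytes follow from the selection and are given as a description. *Pglyrp1*, which encodes a peptidoglycan-binding protein, was at 68.8 and 52.0 CPM in the selected IgG and SPP1-nAb cells and at 1.18 and 1.25 in the other phagocytes. The integrin gene *Itgal*, a partner in LFA-1, was at 122 and 95.4 CPM against 7.71 and 11.0. The non-classical markers *Ace* (61.8 and 43.7 CPM against 6.86 and 4.84) and *Spn* (61.8 and 32.1 against 5.59 and 3.62) and the receptor gene *Trem3* (48.8 and 45.5 against 2.17 and 3.47) were likewise higher. *Plac8* was abundant in both groups of cells, at 1520 and 1306 CPM in the selected cells and 197 and 164 in the others. In the same way, *Gsr*, which encodes glutathione reductase, was at 459 and 410 CPM against 34.2 and 52.1. *Mcemp1*, *Gm9733*, *Serpinb2*, *Gpr141*, *Arhgef37*, *S100a8* and *Trem1* were also among the 15 genes with the highest ratios, all of them at least 7.11 times as high in both libraries, and *S100a8* was itself used by the neutrophil limit. *Ace* also had a UMI in 50.2% of IgG mesenchymal cells, so it is not particular to monocytes in this muscle.

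Genes of settled macrophages were low in the selected cells. The complement genes *C1qa* (212 and 288 CPM against 1863 and 1532), *C1qb* and *C1qc* and the chemokine gene *Pf4* (383 and 243 CPM against 3199 and 2306) were far below their level in the other phagocytes in both libraries. *Cd63*, *Fabp5*, *Cbr2*, *Stab1*, *Pmp22*, *Ccl8*, *Tanc2*, *Gdf15*, *Igf1* and *Selenop* followed the same direction, and so did *Ms4a7*, which was itself used to choose the other phagocytes. Of 10 macrophage genes with enough UMIs, from a list that overlaps with the genes that chose the other phagocytes, 9 were at least 2-fold lower in both libraries and 0 higher, beside 2.47% of all 5258 genes lower and 3.86% higher. Among 10 classical monocyte genes 7 were at least 2-fold higher, and among 10 non-classical genes 6 were higher and *Cd36* lower. Summed over its genes, the classical list reached 6738 and 7207 CPM in the selected cells and 3150 and 3503 in the other phagocytes, and the non-classical list 1722 and 1383 CPM against 1344 and 1120. The non-classical list was at 1451 and 1561 CPM in cells chosen as neutrophils and 1610 and 1128 in those chosen as resident macrophages. In interferon-response cells it was at 1077 and 1026 CPM and in dendritic cells at 660 and 602. The classical list was at 5407 and 4253 CPM in interferon-response cells, nearer to the selected cells than in the other phagocytes. It was at 2364 and 2441 CPM in neutrophils, 3357 and 2960 in resident macrophages and 1505 and 1259 in dendritic cells. *Nr4a1*, the most abundant gene of the non-classical list and also high in mesenchymal cells, was at 412 and 315 CPM against 259 and 208 in the other phagocytes. Since classical genes led as well, the selected cells were not uniformly of the non-classical kind that *Treml4* and *Adgre4* stand for.

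**Figure D2:**
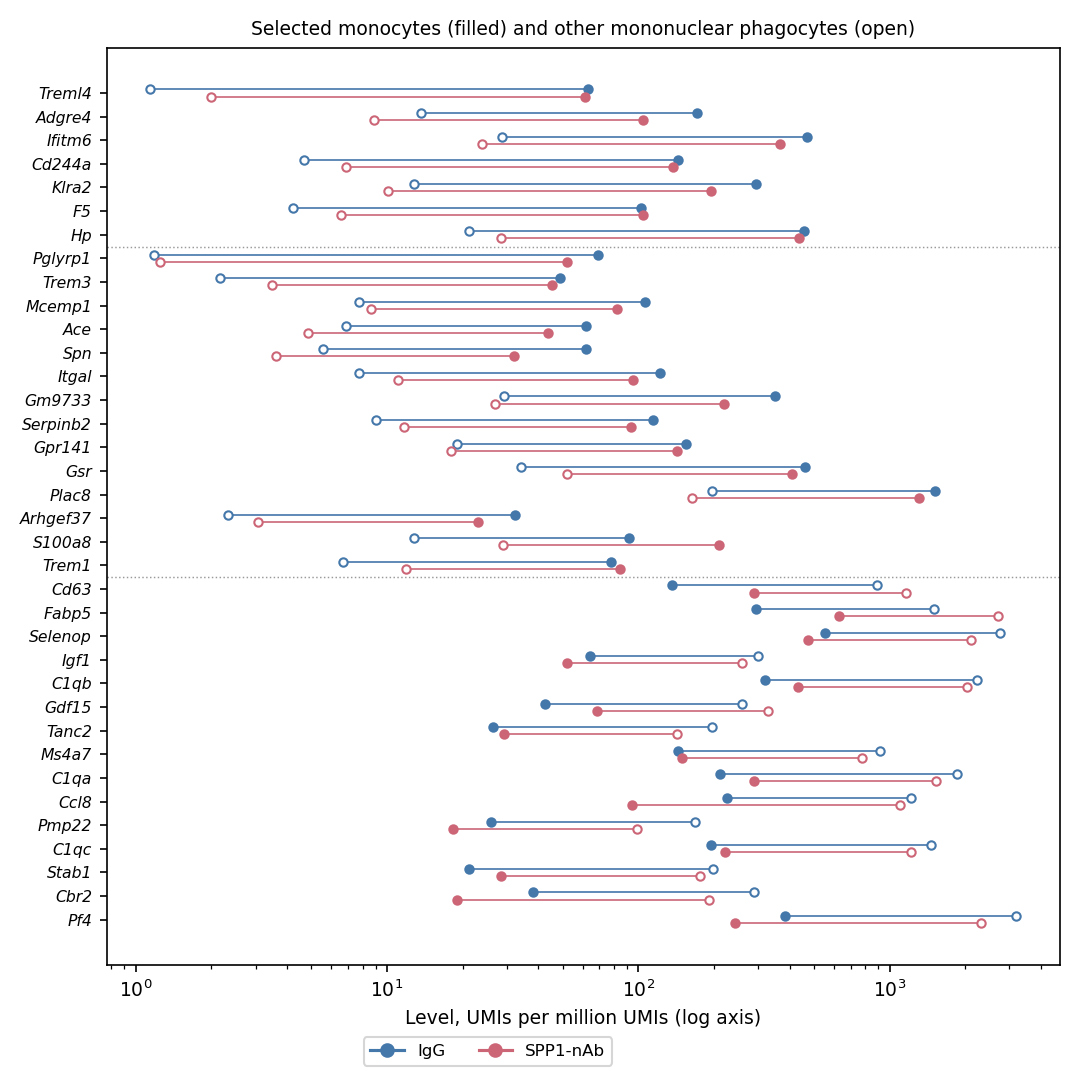
The level of each gene is plotted in UMIs per 1000000 UMIs (x axis, log scale) for the selected cells (filled) and the other mononuclear phagocytes (open) of the IgG (blue) and SPP1-nAb (red) libraries, with the selection genes on top, 14 of the 15 leading genes below them and the 15 lowest at the bottom. *Pglyrp1* runs from 1.18 to 68.8 CPM in the IgG library and *Pf4* the other way, from 3199 to 383.

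Markers of other lineages were absent for some cell types and present for others. Of the 4 basophil and mast cell markers none had a UMI in a selected cell, and the T and NK cell list reached 4.12 and 7.64 CPM with *Cd3e*, *Cd3g* and *Cd8a* at 0. The B cell list reached 6.47 and 3.97 CPM with *Ms4a1* at 0, the plasmacytoid dendritic cell list 2.35 and 0.917 CPM, the platelet list 0.588 and 1.53 CPM and the Schwann cell list 8.24 and 10.7 CPM. Of the neutrophil markers, *Ly6g* was at 0 in both libraries, while *S100a8* was at 91.8 and 210 CPM and *S100a9* at 111 and 197 in spite of the limit. The dendritic cell list was at 112 and 92.3 CPM, most of it *Cd209a* (77.1 and 57.8). The endothelial list was at 32.9 and 40.3 CPM and the erythroid list at 30.6 and 17.1. The neutrophil list was at 271 and 508 CPM. The mesenchymal list was at 376 and 430 CPM and sat in a few cells, as described below.

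Clustering with all selection genes left out divided the 1069 cells into 7 groups. Its leading genes are a description, and clusters received no test. Cluster 1, the largest with 394 cells, was led by *Mmp8*, *Mgst1*, *Vcan*, *Chil3*, *Gm9733*, *Gsr* and *Plcb1* and was classical monocyte-like by the markers *Mgst1*, *Vcan* and *Chil3*. *Ly6c2* had a UMI in 66.0% of its cells and *Ccr2* in 94.7%, and the classical list reached 10130 CPM, the highest of the 7 clusters. *Treml4* was detected in only 10.9% of these cells and *Adgre4* in 24.4%, whereas *Ifitm6* and *Hp* were detected in 90.6% and 89.3%.

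Cluster 4, with 128 cells, was led by *Cd300e*, *Eno3*, *Fabp4*, *Ace*, *Pglyrp1* and *Spn* and was non-classical monocyte-like by 5 of those markers. Although it was not used for clustering, *Treml4* was at 403 CPM and detected in 69.5% of its cells, against 14.3 to 35.1 CPM and 6.08% to 18.1% in clusters 1 to 3. *Adgre4* was at 579 CPM and in 76.6% of the cells. *Ace* was in 60.9% of the cells, *Spn* in 52.3%, *Itgal* in 67.2% and *Gngt2* in 90.6%. *S1pr5*, the sphingosine phosphate receptor of marrow exit, was at 104 CPM in cluster 4 and at 5.00 CPM or less in each of the other clusters, and *Pou2f2* was at 714 CPM. *Nr4a1* (810 CPM), *Klf2* (395), *Pparg* (288), *Tcf7l2* (325) and the survival gene *Bcl2* (125) were each above their levels in the other 6 clusters. *Ly6c2* was down to 88.3 CPM from 590 in cluster 1, and *Ccr2* was detected in 33.6% of the cells. The interferon-response list was at 387 CPM, against 1250 CPM in cluster 1. Cluster 4 cells were shallow, with a median of 2699 UMIs, and 7.81% of them were among the 10% of barcodes that scored highest as doublets, called doublet removals below. Endothelial genes were found in cluster 4 beyond the others, with the 5-gene list at 314 CPM against 7.499 to 31.7 CPM. *Pecam1*, which leukocytes also express, was in 19.5% of the cells and *Cdh5*, which marks endothelium, in 10.9%. The part of endothelial RNA in the cluster was not tested.

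Cluster 3 (181 cells) was led by *Clec10a* and the antigen presentation genes *H2-Aa*, *H2-Ab1*, *H2-Eb1*, *Cd74* and *H2-DMb1*. Its MHC class II list reached 27015 CPM, against 2711 in cluster 1 and 4495 in cluster 4. That list was about as high in cluster 5 (26270 CPM) and was at 12321 CPM in cluster 2. In cluster 3 *Ccr2* was detected in 96.1% of the cells and *Cd209a* in 17.7%. Cluster 2 (259 cells) was led by *Pf4*, *Spp1*, *Cxcl3*, *Ms4a7*, *Ccl12*, *C1qa*, *C1qc* and *Ccl7*. The macrophage list was at 4907 CPM there and at 774 CPM in cluster 1, and *Mrc1* was detected in 70.7% of the cells. Its median depth of 5407 UMIs was above that of the selected cells as a whole, and 28.6% of its cells were among the doublet removals, against 0% in cluster 1 and 1.66% in cluster 3.

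The other 3 clusters were small. Cluster 5 (37 cells) was led by the cell cycle genes *Pclaf*, *Nusap1*, *Ube2c* and *Top2a* with *Retnla*, *Fcrls* and *Lyz1*, and *Mki67* was in 43.2% of its cells. Its median depth was 7949 UMIs, and 24.3% of its cells were among the doublet removals. Cluster 6 (35 cells) was led by the connective tissue genes *Tenm3*, *Rarres2*, *Svep1*, *Col6a3*, *Mgp* and *Ogn*. The mesenchymal list was at 6546 CPM in it and at 17.6 to 75.3 CPM elsewhere, and 77.1% of its cells were among the doublet removals. Cluster 7 (35 cells) was led by *S100a9*, *S100a8*, *Acod1*, *Il1r2* and *Ifitm1*. The neutrophil list was at 12459 CPM in it, although each of its cells had passed the neutrophil limit, and *Treml4* was detected in 48.6% of its cells. Thus cluster 4, with 128 of the 1069 cells, matched the name *Treml4* *Adgre4* monocyte as a group by markers outside the rule. These markers were not detected in every cell of it, with a UMI of *Ace* in 60.9% and of *Spn* in 52.3%. A larger cluster was classical monocyte-like, and the others were led by antigen presentation, macrophage, cycling, connective tissue or neutrophil genes.

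**Figure D3:**
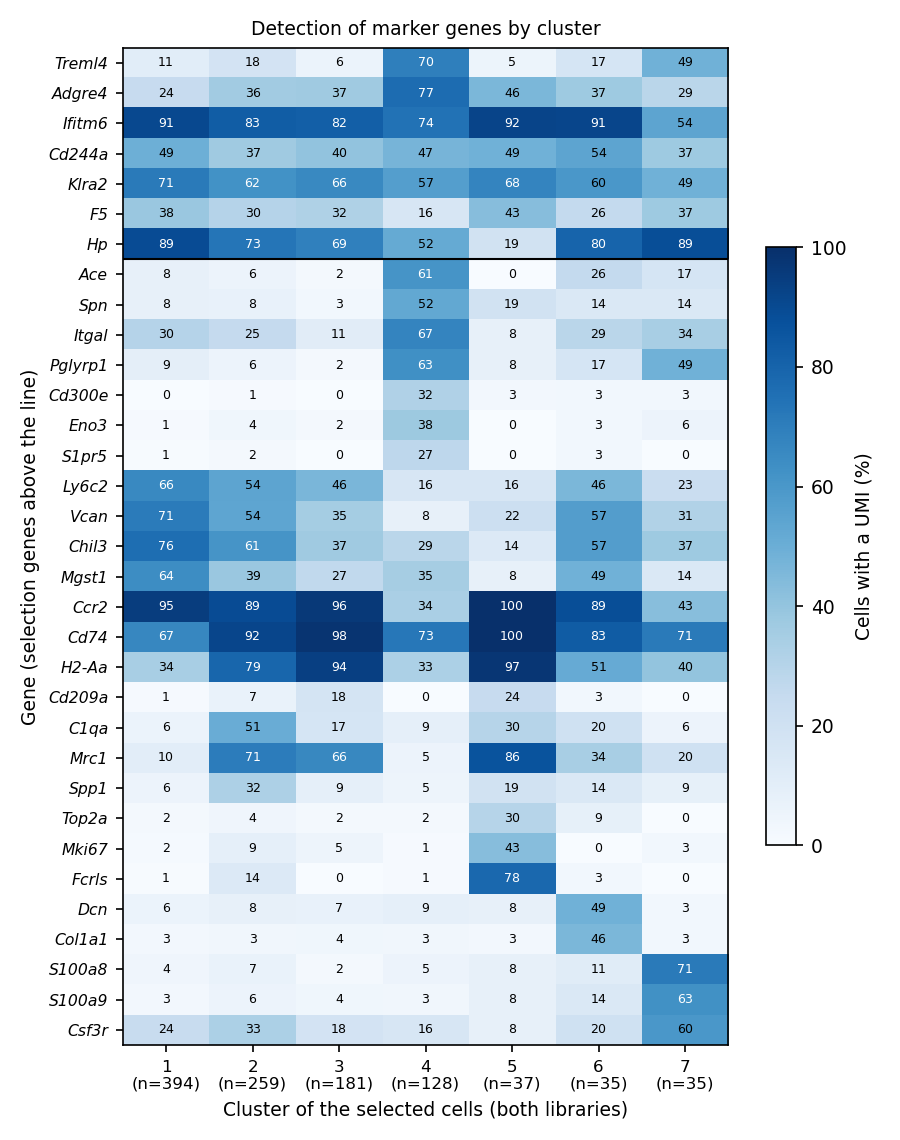
The percent of cells with a UMI (color and number) is given for marker genes (rows, selection genes above the line) in the 7 clusters of the selected cells (columns, with the number of cells in both libraries). *Treml4*, *Ace*, *Spn*, *Cd300e* and *S1pr5* peak in cluster 4, and *Vcan* and *Chil3* are frequent in cluster 1.

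The selected cells were also divided by *Treml4* and *Adgre4* alone. Both genes belong to the rule, and cells without either had to carry 3 of the other 5, so the values are a description and support nothing about the clusters. The 195 IgG cells with either gene had 116 CPM of *Ace* against 11.3 in the 228 without, and the 304 SPP1-nAb cells had 79.5 against 14.4. *Spn* was at 113 against 14.7 CPM and at 54.4 against 13.9. All UMIs of *Cd300e* in the IgG cells fell in cells with either gene (33.1 CPM), and in the SPP1-nAb cells the levels were 31.3 and 0.555 CPM. *Ly6c2* went the other way, at 228 against 596 CPM in the IgG library and 309 against 484 in the SPP1-nAb library. The log2 ratio of the non-classical list between the cells with and without either gene was 1.27 (1.15 to 1.38) after IgG and 0.98 (0.89 to 1.07) after SPP1-nAb, and that of the classical list was −0.63 (−0.69 to −0.58) and −0.42 (−0.46 to −0.38). *Csf1r* was higher in the cells with either gene, at 295 against 201 CPM and 296 against 205. The median depths were 3626 against 3510 UMIs and 4080.5 against 4302.5. Lists of other cell types also differed by this split. The mesenchymal list was at 597 against 173 CPM in the IgG library and 452 against 412 in the SPP1-nAb library. The neutrophil list was at 186 against 348 CPM after IgG and 900 against 187 after SPP1-nAb. The endothelial list was at 42.9 against 23.7 CPM and 58.5 against 25.5.

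Relatives of the selection genes differed among themselves. *Trem1*, the activating receptor of neutrophils and monocytes, was at 77.7 and 84.7 CPM in the selected cells, and *Clec4e*, the receptor Mincle, at 701 and 805 CPM. *Trem3*, *Trem1* and *Treml4* lie close together on chromosome 17. *Adgre5*, which encodes CD97, was at 263 and 228 CPM against 122 and 106. *Ifitm3* was at 3493 and 2983 CPM against 1530 and 1359 and *Ifitm2* at 1629 and 1603 against 881 and 857. The *Ifitm* list, which includes *Ifitm6*, was at 5635 and 5004 CPM in the selected cells. It was at 5605 and 4339 CPM in interferon-response cells and 4794 and 4054 in neutrophils, against 2450 and 2255 in the other phagocytes. The list of TREM, lectin and inhibitory receptors was at 4597 and 4695 CPM in the selected cells and 8843 and 9802 in neutrophils. Among effector genes, *Il1b* was at 2988 and 3103 CPM in the selected cells and 1405 and 1613 in the others, and *Il6* at 124 and 78.2 against 39.3 and 35.9, while *Nos2* had 1 UMI in each library.

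The paper made these libraries to learn how *Spp1* acts on terminal Schwann cells after injury, and here the selected cells of the same libraries were compared. Within the selected cells the median log2 ratio of 7069 genes, SPP1-nAb over IgG, was 0.03, and 137 genes (1.94%) were past 2-fold, 107 higher (1.51%) and 30 lower (0.424%) in the SPP1-nAb library. None of the 12 non-classical genes and none of the 10 classical genes was past 2-fold. The non-classical list was 1722 CPM in the IgG cells and 1383 with SPP1-nAb, so that its log2 ratio was −0.32 (−0.38 to −0.25) with a median of −0.40 over its genes, and in the other phagocytes it was −0.26. Of its 12 genes, 7 had a counting interval below 0 and 0 above, beside 8.56% of all 7069 genes below and 12.2% above. *Spn* had the lowest ratio (61.8 and 32.1 CPM, −0.94, −1.35 to −0.54), and *Cx3cr1* (130 and 82.2 CPM) and *Pou2f2* (208 and 141 CPM) were also lower. The classical list differed by 0.10 (0.06 to 0.13), with a median of −0.0066 over its 10 genes, of which 3 had an interval above 0 and 3 below. Its genes included *Thbs1* (885 and 1486 CPM, 0.75) and *Chil3* (480 and 752 CPM, 0.65), higher in the SPP1-nAb cells, and *Ccr2* was lower (1306 and 1066 CPM, −0.29). The interferon-response list, 6 of whose genes limited the selection, differed by −0.15 (−0.23 to −0.07).

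The non-classical list was also compared within clusters, with no test of a difference between them. Cluster 4 held 14.7% of the selected IgG cells and 10.2% of the selected SPP1-nAb cells, and cluster 2 held 20.8% and 26.5%. The part of this mix in the ratio over all selected cells was not tested. Within cluster 4 the list was 6068 CPM in 62 IgG cells and 5785 CPM in 66 cells of the SPP1-nAb library (log2 ratio −0.07, −0.19 to 0.05), and within cluster 1 it was −0.11 (−0.24 to 0.02). Clusters 2 (−0.22, −0.36 to −0.08), 3 (−0.04), 5 (−0.22) and 6 (−0.21) had the same sign, and in cluster 7, where 9 IgG and 25 SPP1-nAb cells held its UMIs, it was −0.63 (−1.03 to −0.22). When cells were thinned to 2000 UMIs before selection, the ratio in all selected cells was 0.04 (−0.09 to 0.16). *Treml4* was at 337 and 460 CPM in cluster 4 (0.45, −0.03 to 0.94), and in all selected cells at 62.9 and 61.4 CPM (−0.04). Cluster 4 held 0.265% of all IgG cells (0.203% to 0.340%) and 0.267% of all SPP1-nAb cells (0.206% to 0.339%), which is given without a comparison because *Spn*, one of its leading genes, differed between the libraries. *Adgre4* and *Klra2* were lower in the SPP1-nAb library in all selected cells, at 172 and 104 CPM (−0.72, −0.95 to −0.49) and 294 and 195 CPM (−0.59, −0.76 to −0.42). Within cluster 4 they were at 697 and 475 CPM (−0.55, −0.95 to −0.16) and 409 and 250 CPM (−0.71, −1.26 to −0.18). In the other phagocytes, which were chosen in part by not meeting the rule, the ratios were −0.62 and −0.35. The rule used these genes and met libraries of unequal depth, so their ratios are a description and none of them supports another. In cluster 4 *Hp* was at 260 and 475 CPM (0.87, 0.35 to 1.40), and in all selected cells at 458 and 438 (−0.06).

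**Figure D4:**
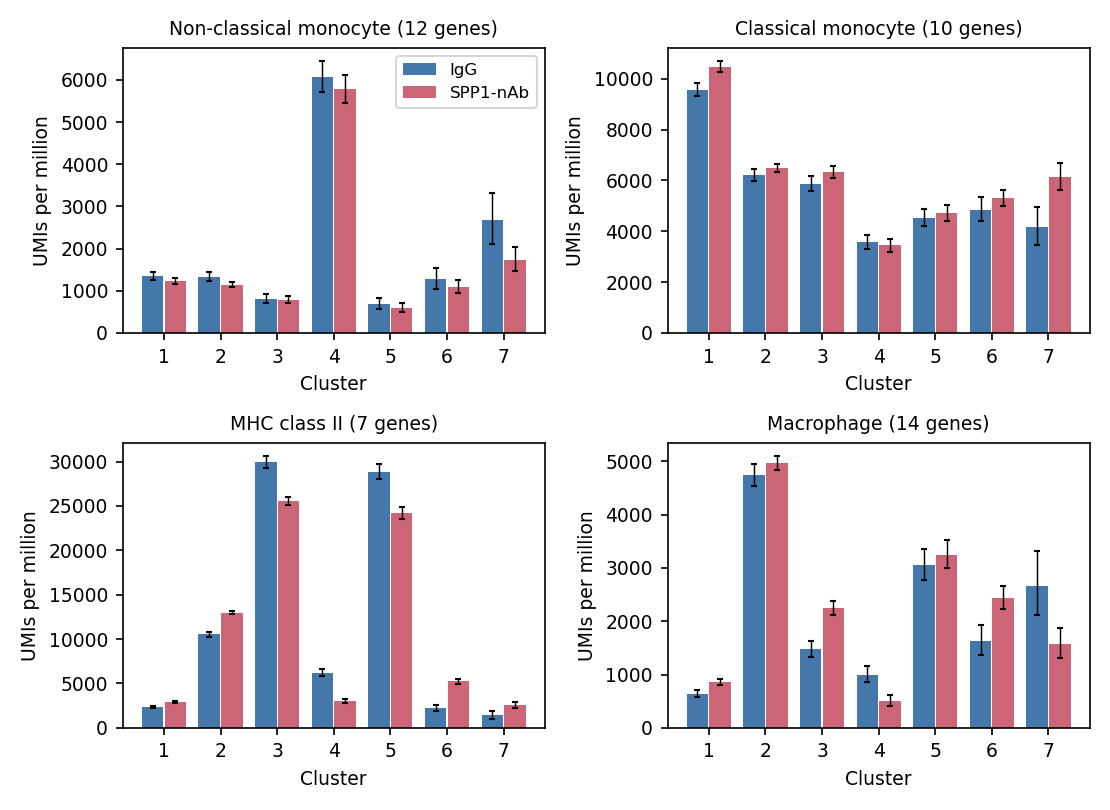
Summed levels in UMIs per 1000000 UMIs (y axes) of 4 gene lists are plotted for the IgG (blue) and SPP1-nAb (red) cells of each cluster (x axes), with bars from 0 and 95% counting intervals. The non-classical list stands at 6068 and 5785 CPM in cluster 4, and the MHC class II list in the same cluster at 6201 and 2986 CPM.

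Other lists moved within clusters. In cluster 4 the MHC class II list was 6201 CPM in IgG and 2986 in SPP1-nAb cells (−1.05, −1.20 to −0.91) and the macrophage list 996 and 509 CPM (−0.97, −1.33 to −0.61), and in cluster 1 the same lists differed by 0.34 (0.24 to 0.44) and 0.43 (0.25 to 0.62). The sign was not the same in all clusters. The MHC class II list was higher in the SPP1-nAb cells of clusters 2 (0.30), 6 (1.26) and 7 (0.84) and lower in those of clusters 3 (−0.23) and 5 (−0.25). The macrophage list differed by 0.07 in cluster 2, 0.60 in cluster 3, 0.09 in cluster 5, 0.59 in cluster 6 and −0.76 in cluster 7. The neutrophil list, in which the 4 genes of the neutrophil limit had 347 of 460 IgG UMIs and 1343 of 1661 SPP1-nAb UMIs, is given as a description because the selection used those genes. It was 271 and 508 CPM over all selected cells (0.91, 0.76 to 1.06), cluster 7 held 225 and 1191 of its UMIs, and the log2 ratios were 0.24 in cluster 1, 0.07 in cluster 2, 1.91 in cluster 3 (7 and 52 UMIs, 0.77 to 3.30) and 0.95 in cluster 7. Clusters 5 and 6 had 2 and 1 UMIs of it in the IgG cells and 46 and 31 in the SPP1-nAb cells, with intervals of 2.25 to 7.28 and 1.05 to 8.98. In cluster 4 it had 93 UMIs in 12 IgG cells and 19 UMIs in 15 SPP1-nAb cells (−2.47, −3.26 to −1.74). The endothelial list in cluster 4 was 227 and 392 CPM (0.79, 0.23 to 1.37), and its part in the other differences of this cluster was not tested. The immediate early and stress list, which includes *Fos*, *Jun* and *Egr1* and is known to respond to tissue dissociation, was 5459 and 3607 CPM over all selected cells (−0.60, −0.64 to −0.56) and −0.77 in the other phagocytes. It was lower in clusters 1 (−0.57), 2 (−0.74) and 3 (−0.55) and less so in cluster 4 (−0.19, −0.32 to −0.06). *Fos* was at 1774 and 995 CPM and *Klf2* at 155 and 87.4 CPM. Whether it had a part in the other differences was not tested.

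Of the genes past 2-fold, *Spp1*, which encodes the antibody's target osteopontin, was at 110 CPM in the IgG cells and 355 in the SPP1-nAb cells (1.69, 1.47 to 1.92), against 707 and 1210 CPM in the other phagocytes (0.78). The gene sat in cluster 2, which held 168 UMIs in 17 of 88 IgG cells and 1014 UMIs in 67 of 171 SPP1-nAb cells (383 and 873 CPM, 1.19, 0.95 to 1.43). At 2000 UMIs per cell *Spp1* had a UMI in 4.22% of the selected IgG cells and 11.2% of the selected SPP1-nAb cells. The shares were 5.90% and 7.18% in mesenchymal cells, 2.81% and 9.89% in myogenic cells and 18.9% and 31.3% in the other mononuclear phagocytes. In the SPP1-nAb library the interval of the selected cells (8.83% to 13.98%) lay above that of mesenchymal cells (5.81% to 8.77%). It overlapped that of myogenic cells (7.93% to 12.1%). In the IgG library the interval of the selected cells overlapped those of mesenchymal and myogenic cells. At full depth the shares in the selected cells were 7.09% and 17.5%. In cluster 1 it had 12 and 17 UMIs (−0.22, −1.37 to 0.98), and in cluster 4 it had 2 and 5. In the 313 IgG and 427 SPP1-nAb cells outside clusters 2, 6 and 7, the clusters with the highest shares of doublet removals, *Spp1* was at 16.5 and 26.8 CPM (0.70, −0.09 to 1.55), and with only the doublet removals left out it was at 53.5 and 112 CPM (1.06, 0.69 to 1.45). This subset was chosen after the values had been seen.

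9 of the 10 genes with the highest ratios had 229 UMIs or fewer in each library. *AA467197* had 4 UMIs in the IgG cells and 96 in the SPP1-nAb cells (3.64, 2.24 to 5.55), of which cluster 2 held 1 and 75. *Atp6v0d2*, a proton pump subunit of osteoclasts and macrophages, had 3 and 57 UMIs (3.30, 1.68 to 5.62), *Anpep* 4 and 53 (2.78, 1.34 to 4.71), *Flrt2* 10 and 95, *Mir155hg* 8 and 66, *Gpnmb* 13 and 107, *Flrt3* 29 and 229 and *Csf1* 10 and 77. Cluster 2 held 47 of the 57 SPP1-nAb UMIs of *Atp6v0d2*, 94 of the 107 of *Gpnmb* and 40 of the 53 of *Anpep*. *Yae1d1* was an exception, with 11 and 115 UMIs over all selected cells (2.44, 1.55 to 3.48), a log2 ratio of 0.05 in the other phagocytes and 2.85 (1.74 to 4.21) outside clusters 2, 6 and 7.

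Among the genes lower in the SPP1-nAb library, those of connective tissue came from few cells. *Cxcl14* had 327 UMIs in 9 IgG cells and 100 UMIs in 23 SPP1-nAb cells (192 and 30.6 CPM, −2.65, −2.99 to −2.33), and 319 of the 327 were in 3 cells of cluster 6. *Thbs4* (−2.49), *Abi3bp* (−2.55), *Postn* (−1.59) and *Nid1* (−1.504) were likewise held by cluster 6, which had 118 of the 120 IgG UMIs of *Thbs4* and 76 of the 80 of *Postn*. Outside clusters 2, 6 and 7 *Cxcl14* had 5 UMIs in the IgG cells and 14 in the SPP1-nAb cells. With only the doublet removals left out, *Cxcl14* had 321 and 38 UMIs (−3.86, −4.39 to −3.37), and the ratio of *Thbs4* was −3.13. *Lyz1*, a lysozyme gene close in sequence to *Lyz2* and therefore uncertain, was at 175 and 49.5 CPM (−1.82, −2.11 to −1.54), and it was −1.79 (−2.10 to −1.48) outside those clusters and −1.09 in the other phagocytes. It was detected in 37 of 423 and 28 of 646 cells, and most of its UMIs were in clusters 5 and 3, which were not among those left out. With only the doublet removals left out, its ratio was −1.44 (−1.74 to −1.14). *Cd163*, a scavenger receptor of resident macrophages, had 45 and 26 UMIs (−1.74, −2.49 to −1.01), but 5 and 6 UMIs outside clusters 2, 6 and 7 (−0.40, −2.38 to 1.65), and its ratio was −0.67 (−1.92 to 0.59) with the doublet removals left out. *Tnfsf13os* (−1.48), *Ndnf* (−1.43) and *Rhbdd1* (−1.29) had 56 UMIs or fewer in each library, and outside clusters 2, 6 and 7 their ratios were −1.18, −0.94 and −1.30.

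Outside clusters 2, 6 and 7, 76 of 5645 genes were past 2-fold, of which 28 were among the 137. Removing the 10% of barcodes that scored highest as doublets took out 43 selected cells after IgG (10.2%) and 92 after SPP1-nAb (14.2%). Then 88 of 6337 genes were past 2-fold and 48 were among the 137.

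**Figure D5:**
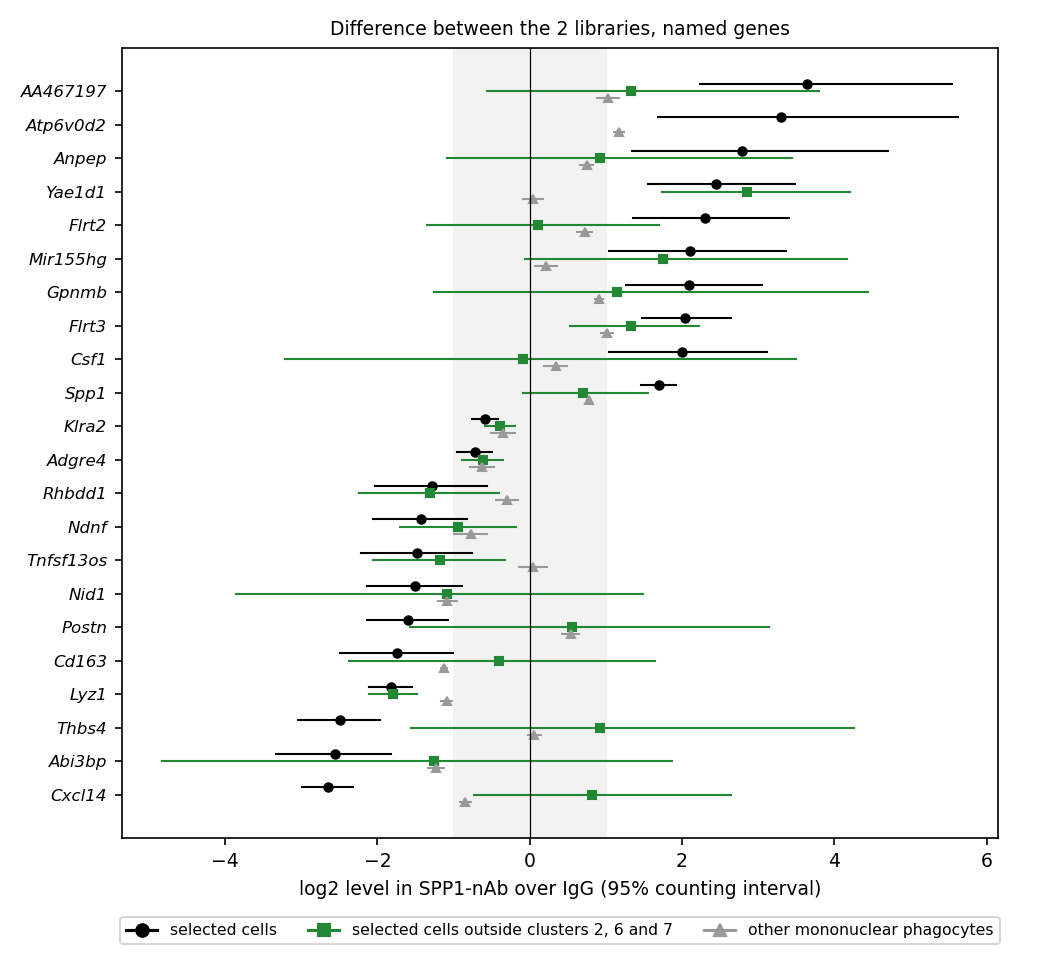
The log2 ratio SPP1-nAb over IgG (x axis, 95% counting intervals) is plotted for 9 of the 10 genes with the highest and the 10 with the lowest ratio and for *Spp1*, *Klra2* and *Adgre4*, in all selected cells (black), in those outside clusters 2, 6 and 7 (green) and in the other mononuclear phagocytes (gray), with the band marking ratios within 2-fold. *Spp1* goes from 1.69 to 0.70 outside those clusters and *Cxcl14* from −2.65 to 0.82, while *Lyz1* stays at −1.79.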

How the data were processed

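Single cells from injured muscle were profiled in 2 libraries, 1 per condition. The authors deposited whole-number UMI counts per gene and barcode after CellRanger's own choice of barcodes, without normalization. The file headers name CellRanger 9.0.1 and the submitters' processing notes Cell Ranger 8.0.0 with GRCm39, while the paper's methods also name GRCm38. The paper's removal of ambient RNA and doublets and its integration are not in these counts. The libraries held 97607674 UMIs on 23779 barcodes (IgG) and 127719916 on 25069 (SPP1-nAb).

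Selected cells, lists and rules were chosen with earlier results of these data known. Levels are summed UMIs per 1000000 UMIs of the same cells (CPM). Shares have exact Clopper-Pearson intervals and ratios exact intervals from binomial shares of UMIs, at 95%, and both cover counting error only. With 1 library per condition no test was made, and past 2-fold was counted among genes with at least 50 UMIs over both libraries and 20 selected cells with a UMI, or at least 100 UMIs and 20 cells per library for comparisons with other phagocytes. Doublets were not removed, except in an alternative that took out the 10% of barcodes per library with the highest score, from simulated doublets among 30 neighbors. For clusters, 15 principal components of the 1000 most variable genes, centred by library and without the selection genes, were clustered with the Leiden algorithm (15 neighbors, resolution 0.5). Named genes were the selection genes, up to 4 abundant genes or absent markers per list, the 15 genes with the highest ratio to other phagocytes, and the 10 highest and lowest between libraries. Mitochondrial, ribosomal, hemoglobin, immunoglobulin and some sex-linked genes were left out of the choices by size. The 15 lowest against other phagocytes, *S1pr5*, cluster genes and other list genes were named after their values had been seen. Some genes that these rules name are not reported here. Thinned shares used 2000 UMIs per cell and left out 20 IgG and 31 SPP1-nAb selected cells. Coordinates are from GENCODE M39. Python 3.11.15, numpy 2.4.6, scipy 1.17.1, pandas 2.3.3, scikit-learn 1.9.0, leidenalg 0.10.2 and igraph 0.11.9 were used. Ratios between libraries and their intervals were tested on simulated counts with planted ratios, and thinning was checked on part of the IgG barcodes. The selection, doublet scores and clusters were not tested in this way.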

Additional observations from a re-analysis of the deposited data

How the results depend on the processing

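Each condition had 1 library of pooled mice, so nothing here separates treatment from library, and the SPP1-nAb library was the deeper one. The log2 ratio of the share of selected cells (0.53) was 0.13 after thinning to 2000 UMIs, 0.30 among barcodes with *Csf1r* or *Lyz2* and 0.15 among mononuclear phagocytes, and it lay between 0.37 and 0.70 in 17 other settings. The last 2 denominators, the cells with *Treml4* or *Adgre4*, and those outside clusters 2, 6 and 7 were added after the data had been seen. The non-classical list (−0.32) was −0.25 with at least 2 of 7 genes, −0.55 with at least 2 UMIs of a gene, −0.38 with *Klra2* left out and −0.18 with no interferon or neutrophil limit, and it changed sign after thinning (0.0386). The classical list (0.10) was 0.0129 with at least 2 genes, 0.0507 with at least 4, 0.0490 with *Adgre4* left out, 0.22 in cells with *Treml4* or *Adgre4* and 0.15 outside clusters 2, 6 and 7, and it changed sign with no limits (−0.12). The interferon list (−0.15) was −0.34 with at least 2 genes, −0.39 with at least 4, −0.47 with 2 UMIs, −0.25 with *Treml4* and −0.36 with *Ifitm6* left out, −1.06 with no limits, −0.0568 with doublets removed and −0.41 after thinning, and it changed sign in cells with *Treml4* or *Adgre4* (0.0288). The cause of these changes was not tested, apart from the limits, which remove cells by 6 of the interferon genes themselves. The 137 genes past 2-fold became 58 of 5323 with a floor of 100 UMIs, 744 of 7069 past 1.5-fold, 88 with doublets removed and 76 outside clusters 2, 6 and 7. No paired analysis was possible because each group had 1 library.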

Other observations

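Genes of SPP1 reception differed in direction between the selected cells and the other mononuclear phagocytes. *Cd44*, which encodes a receptor for osteopontin and hyaluronan, had a UMI in 387 of 423 IgG cells and 616 of 646 SPP1-nAb cells, at 1272 and 1473 CPM against 774 and 994 CPM in the other phagocytes. The integrin gene *Itgav* was at 103 and 130 CPM against 151 and 211. *Itgb3*, its partner in the vitronectin receptor, had 5 and 7 UMIs in the selected cells. Over the 9 genes of the list, 1 of 8 with enough UMIs was past 2-fold between the libraries (*Spp1* itself), beside 1.94% of all genes.

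Coagulation genes other than *F5* were uneven. *F10*, which encodes factor X, was at 226 and 310 CPM against 93.2 and 177 in the other phagocytes, and *Plaur*, the urokinase receptor gene, at 627 and 678 CPM against 254 and 359. *F7* was at 10.0 and 22.3 CPM against 34.2 and 75.4, and *F3*, which encodes tissue factor, had 13 and 15 UMIs in the selected cells. Among genes of lipid handling, *Fabp4* stood out by cluster, at 1065 CPM in cluster 4 and at 99.8 CPM or less in each of the other 6. Cluster 4 also had the highest endothelial list (314 CPM), and the part of endothelial RNA in its *Fabp4* was not tested. *Fabp5* was at 295 and 630 CPM over all selected cells against 1501 and 2700 CPM in the other phagocytes.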
